A study of Mus musculus with 6 samples.

Results

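Adenosine handling in the reperfused mouse heart was followed through 9 transcripts, the 4 adenosine receptor genes Adora1, Adora2a, Adora2b and Adora3, the ectonucleotidase genes Entpd1 and Nt5e, the transporter gene Slc29a1, and Adk and Ada, whose enzymes remove adenosine. The members were a named list of genes relevant to preconditioning. All 9 were found by symbol among the 37620 genes of the deposited count table.

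RNA came from the heart apex of wild-type (WT) C57/BL6J mice, 3 samples from mice given dexmedetomidine and 3 from mice given vehicle. Dexmedetomidine is a sedative that acts on alpha-2 adrenergic receptors. Yohimbine is an antagonist of those receptors, and its vehicle alone was given 30 min before dexmedetomidine at 10 µg/kg in the first group, with surgery 20 min after the drug. The vehicle mice received the vehicles of yohimbine and of dexmedetomidine before surgery, at times that the labels do not give for that group. Each infusion into the tail vein took at most 10 min. Both groups then had 30 min of myocardial ischaemia and 120 min of reperfusion, so no unoperated or non-ischaemic heart enters the comparison. The labels give neither age nor sex. They do not say that the samples of a group came from separate animals, so the spread behind each p-value may be technical. The question asked is whether transcripts of the adenosine system differ in the reperfused apex when dexmedetomidine was given first.

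Adenosine is produced outside cells from ATP that stressed cells release. CD39, the product of Entpd1, cleaves ATP and ADP to AMP, and CD73, the product of Nt5e, cleaves AMP to adenosine. Adenosine acts on G protein-coupled receptors, of which those of Adora1 and Adora3 couple to inhibitory G proteins (Gi) and those of Adora2a and Adora2b to stimulatory ones (Gs). In the heart the Adora1 receptor slows the pacemaker and conduction, the Adora2a receptor dilates coronary vessels, and the Adora2b receptor has low affinity and responds to the high adenosine of ischaemia. The transporter ENT1 (Slc29a1) carries adenosine across the membrane down its gradient. Inside the cell adenosine kinase (Adk) returns it to AMP, and adenosine deaminase (Ada) converts it to inosine.

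Nt5e was the member with the smallest p, on the higher side after dexmedetomidine, and Adora2b had the smallest p on the lower side. Their promoters are therefore shown, as windows of 300 bases, from 250 bases before to 50 after the annotated gene start, from RefSeq on GRCm38.p6, both on the plus strand. Nt5e lies at chr9:88327359-88327658 and Adora2b at chr11:62248734-62249033. Both genes are known targets of hypoxia-inducible factors, whose binding core is ACGTG or GCGTG, and capitals mark each match to either core on either strand.
Nt5e: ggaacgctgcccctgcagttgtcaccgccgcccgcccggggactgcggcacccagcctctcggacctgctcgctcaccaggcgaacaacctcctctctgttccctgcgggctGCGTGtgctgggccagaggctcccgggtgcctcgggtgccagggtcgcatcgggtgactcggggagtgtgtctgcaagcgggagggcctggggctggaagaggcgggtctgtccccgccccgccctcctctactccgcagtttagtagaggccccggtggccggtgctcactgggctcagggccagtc
Adora2b: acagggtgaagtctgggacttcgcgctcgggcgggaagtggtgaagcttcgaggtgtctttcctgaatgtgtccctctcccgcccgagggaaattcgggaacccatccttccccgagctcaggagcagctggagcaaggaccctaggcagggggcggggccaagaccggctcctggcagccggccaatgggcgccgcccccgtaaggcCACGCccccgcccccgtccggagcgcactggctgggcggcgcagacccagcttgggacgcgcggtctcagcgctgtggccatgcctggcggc
Each window held 1 GCGTG, which reads as CACGC in the Adora2b window because it lies on the other strand, and neither held ACGTG. The windows were rich in G and C, 71.0% for Nt5e and 70.0% for Adora2b. Of all 32851 promoter windows of this length, 43.8% held at least 1 of the cores, 19.6% ACGTG and 32.4% GCGTG. Windows were found for 8 of the 9 members, 18 windows in all since some genes have several starts, and 11 of the 18 held a core. Slc29a1 had the most windows, and some of them overlap each other, so the 18 are not independent. Their share was not tested against that of all windows, nor against windows of like GC content. Adora2a had no entry. A match describes these letters and not a bound site.

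Gene counts summed to 42.7 to 48.6 M in the dexmedetomidine libraries and 50.3 to 56.6 M in the vehicle libraries. Mitochondrially encoded genes took 27.1% to 38.2% of gene counts after dexmedetomidine and 22.0% to 25.2% after vehicle, which makes the choice of library scaling matter for the genes below. Cardiomyocyte markers were abundant, with 6 genes summing to 30743 to 35445 CPM after dexmedetomidine and 36286 to 43474 CPM after vehicle. Dexmedetomidine replicate 3 stood apart in the sum of 4 atrial markers, at 59.9 CPM there against 7.52 to 31.5 CPM in the other 5 libraries. It held 462 counts of Myl7, an atrial myosin light chain, and 432 of Sln, the atrial regulator sarcolipin, where the other libraries had at most 1 of each. Myl4 was also highest there, at 25.2 CPM. Nppa was not, at 11.7 CPM against 6.75 to 30.1 CPM in the other libraries. CPM are counts scaled to 1e6 of the TMM-scaled library size, where TMM is a scaling that sets most genes level between libraries. In edgeR's quasi-likelihood test none of 14738 tested genes passed a Benjamini-Hochberg adjusted p of 0.05 (0% called), 3172 had an unadjusted p under 0.05 (21.5%), and DESeq2 called 1272 and limma-voom with quality weights 2107 at the adjusted threshold. In whole tissue, fewer cells of a type and less RNA per cell cannot be told apart.

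All 9 members passed the filter on low counts, and none passed the adjusted threshold in edgeR. Log2 fold changes, dexmedetomidine over vehicle, were above 0 for 4 members and below 0 for 5, beside 50.3% and 49.7% of all tested genes. Their median was -0.046, against 0.0032 over all tested genes. At an unadjusted p under 0.05 there was 1 member, Nt5e, or 1 of 9 beside 21.5% of all tested genes. Without overlap between the groups were Nt5e, on the higher side, and Slc29a1, on the lower side. These are 2 of 9 members beside 27.6% of all tested genes, of which 15.6% were higher and 12% lower. Both shares are near or under the background, so neither count is a result about the members.

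**Figure D1:**
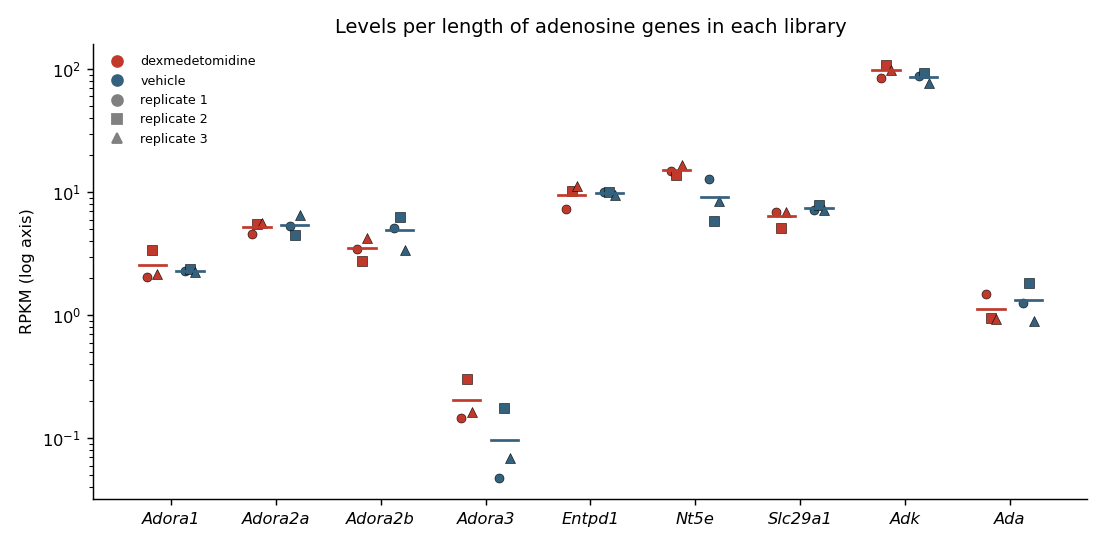
Levels per length in RPKM on a log axis for the 9 genes. Each point is a library, red for dexmedetomidine and blue for vehicle, with shapes for replicate numbers and bars for group means. Adk lies above the other genes and Adora3 below them in both groups, and Nt5e is the gene whose red points all lie above the blue ones.

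Compared per length, as RPKM (CPM per 1000 bases, by the deposited gene length), the members spanned a wide range that was alike in order between the groups. Adk was the most abundant, at 97.6 ± 11.7 RPKM with dexmedetomidine and 86.4 ± 8.56 RPKM with vehicle (SD over 3 libraries each, here and below). After dexmedetomidine Nt5e followed at 15.1 ± 1.47 RPKM, Entpd1 at 9.57 ± 1.98, Slc29a1 at 6.35 ± 1.06 and Adora2a at 5.23 ± 0.581. Then came Adora2b at 3.49 ± 0.740 RPKM, Adora1 at 2.54 ± 0.765, Ada at 1.12 ± 0.309 and Adora3 at 0.205 ± 0.0872. Among neighbours in this order, the library ranges of Slc29a1 and Adora2a overlapped, as did those of Adora2b and Adora1, while the other neighbours did not. After vehicle the order was the same except that Entpd1, at 9.87 ± 0.264 RPKM, stood before Nt5e, at 9.11 ± 3.56. There the ranges of Entpd1 and Nt5e, of Nt5e and Slc29a1, and of Adora2a and Adora2b overlapped. The remaining vehicle means were 7.38 ± 0.371 RPKM for Slc29a1, 5.42 ± 0.997 for Adora2a, 4.97 ± 1.46 for Adora2b, 2.30 ± 0.0587 for Adora1, 1.33 ± 0.480 for Ada and 0.0972 ± 0.0688 for Adora3. Expressed as TPM, the order was the same in each group.

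Among the receptors, the Gs-coupled pair Adora2a and Adora2b had higher mean levels per length than the Gi-coupled Adora1 in both groups, and Adora3 was barely detected. In dexmedetomidine replicate 2 alone Adora1, at 3.42 RPKM, exceeded Adora2b, at 2.77 RPKM. Adora1 (ENSMUSG00000042429), the receptor that slows the pacemaker, measured 11.8, 19.8 and 12.5 CPM in dexmedetomidine replicates 1, 2 and 3, against 13.2, 13.7 and 13.1 CPM in vehicle replicates 1, 2 and 3. Dexmedetomidine replicate 2 was the highest library and the other dexmedetomidine libraries lay below all vehicle libraries, so the groups overlapped. Its log2 fold change was 0.14 (SE 0.20, 95% interval -0.31 to 0.59, edgeR adjusted p = 0.729), and it was -0.13 without dexmedetomidine replicate 2. With library totals in place of TMM it was -0.0033.

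Adora2a (ENSMUSG00000020178), the receptor of coronary dilation, measured 11.6, 13.9 and 14.3 CPM in the dexmedetomidine libraries and 13.5, 11.4 and 16.4 CPM in the vehicle libraries. The vehicle libraries held both the lowest and the highest value. Its log2 fold change was -0.054 (SE 0.18, 95% interval -0.45 to 0.34, edgeR adjusted p = 0.891). The sign was not stable, at 0.033 without dexmedetomidine replicate 1, 0.093 without vehicle replicate 3 and 0.28 when GC content and length were corrected for, none of them past the threshold.

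Adora2b (ENSMUSG00000018500) had the lowest log2 fold change of the members. It measured 6.40, 5.11 and 7.84 CPM in the dexmedetomidine libraries and 9.49, 11.7 and 6.31 CPM in the vehicle libraries. Vehicle replicate 3 lay among the dexmedetomidine libraries, and the other vehicle libraries lay above all of them. This gave a log2 fold change of -0.51 (SE 0.25, 95% interval -1.07 to 0.059, unadjusted p = 0.074, edgeR adjusted p = 0.278). Leaving out single libraries gave -0.71 without vehicle replicate 3 (edgeR adjusted p = 0.0805) and -0.29 without vehicle replicate 2, with adjusted p above 0.05 in each case.

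Adora3 (ENSMUSG00000000562), best known in rodents from mast cells, had 19, 30 and 16 counts in the dexmedetomidine libraries and 7, 22 and 10 counts in the vehicle libraries. At 0.370, 0.770 and 0.411 CPM after dexmedetomidine and 0.120, 0.443 and 0.173 CPM after vehicle the groups overlapped at vehicle replicate 2. The log2 fold change of 1.08 had a wide interval (SE 0.69, 95% interval -0.45 to 2.61, edgeR adjusted p = 0.395). It was 0.68 without dexmedetomidine replicate 2 and 1.80 without vehicle replicate 2 (unadjusted p = 0.046, edgeR adjusted p = 0.330). In limma-voom with quality weights it was 1.73 (unadjusted p = 0.0187, adjusted p = 0.0875). The annotated span of Adora3 overlaps that of Tmigd3 on the same strand, which had at most 9 counts in any library, so reads in the shared part could have gone to either gene or been set aside as ambiguous.

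Of the ectonucleotidases, Nt5e was higher in each dexmedetomidine library than in any vehicle library, while Entpd1 had nearly equal means. Nt5e (ENSMUSG00000032420), whose product CD73 makes adenosine from AMP, measured 53.6, 49.0 and 59.6 CPM after dexmedetomidine, against 46.3, 21.0 and 30.5 CPM after vehicle. Means were 54.0 ± 5.27 CPM with dexmedetomidine and 32.6 ± 12.8 CPM with vehicle (SD, n = 3 each), with most of the spread between the vehicle libraries. The log2 fold change was 0.73 (SE 0.25, 95% interval 0.15 to 1.31), or 1.66-fold, with an unadjusted p of 0.0198 and an adjusted p of 0.156 in edgeR's quasi-likelihood test. DESeq2 called it at an adjusted p of 0.0474, where it called 6.61% of all genes it tested as higher. Limma-voom with quality weights did not (adjusted p = 0.154, log2 fold change 0.48).

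The direction for Nt5e was positive in each of 14 alternatives, with log2 fold changes of 0.48 to 1.06. These alternatives reuse the same libraries and are not independent. Since the groups did not overlap in TMM-scaled CPM, leaving out 1 library could hardly have changed the sign. Vehicle replicate 2 was the lowest library, and without it the log2 fold change was 0.49 (edgeR adjusted p = 0.244), whereas without vehicle replicate 1 it was 1.06 (adjusted p = 0.220). Without dexmedetomidine replicate 3, the library highest in Myl7, Sln and Myl4, it was 0.65 (edgeR adjusted p = 0.432). The part of those transcripts in the values was not tested. When GC content and length were corrected for it was 0.66 (SE 0.24, edgeR adjusted p = 0.320). Scaled to library totals without TMM, the values were 56.6, 44.8 and 53.6 CPM after dexmedetomidine and 47.9, 20.7 and 34.4 CPM after vehicle, so that dexmedetomidine replicate 2 lay below vehicle replicate 1 and the groups overlapped.

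Summed markers of some cell types that can carry CD73 also stood apart between the groups. For 6 fibroblast markers the sums were 914 to 1198 CPM after dexmedetomidine and 798 to 913 CPM after vehicle, with 4 of 6 markers higher, and the groups were apart by less than 1 CPM. Most of that sum was Dcn, a matrix proteoglycan gene, with 572, 851 and 785 CPM after dexmedetomidine and 600, 497 and 555 CPM after vehicle, where the groups overlapped. Its log2 fold change was 0.42 without and -0.44 when GC content and length were corrected for. The 6 mural cell markers summed to 1192 to 1366 CPM after dexmedetomidine and 883 to 998 CPM after vehicle, but 5 of 6 were lower, while Rgs5, a pericyte gene, made up most of the sum, with 905, 1068 and 1163 CPM after dexmedetomidine and 699, 570 and 718 CPM after vehicle. Its log2 fold change was 0.66 without and 0.097 with that correction. The 6 endothelial markers summed to 879 to 960 CPM after dexmedetomidine and 876 to 987 CPM after vehicle, and the 6 cardiomyocyte markers were lower for 5 of 6. All 6 neutrophil markers had a log2 fold change above 0, with a median of 0.49, or 0.33 with the correction, and none had an unadjusted edgeR p under 0.05. Their sums overlapped, at 46.7 to 183 CPM after dexmedetomidine and 61.0 to 119 CPM after vehicle. Sums of 6 lymphocyte markers also overlapped, at 1.95 to 2.41 CPM after dexmedetomidine and 0.700 to 2.60 CPM after vehicle. So did those of 6 macrophage and monocyte markers, at 124 to 175 CPM after dexmedetomidine and 136 to 178 CPM after vehicle. None of these markers was at 0 in every library. Their part in the Nt5e values was not tested.

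Entpd1 (ENSMUSG00000048120), whose product CD39 acts one step earlier, measured 41.1, 56.6 and 62.5 CPM after dexmedetomidine and 56.1, 55.8 and 53.4 CPM after vehicle. The vehicle libraries lay close together and the dexmedetomidine libraries lay on both sides of them. Its log2 fold change was -0.046 (SE 0.16, 95% interval -0.39 to 0.30, edgeR adjusted p = 0.897). It was 0.11 without dexmedetomidine replicate 1 and -0.36 with the GC and length correction (unadjusted p = 0.034, edgeR adjusted p = 0.354).

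**Figure D2:**
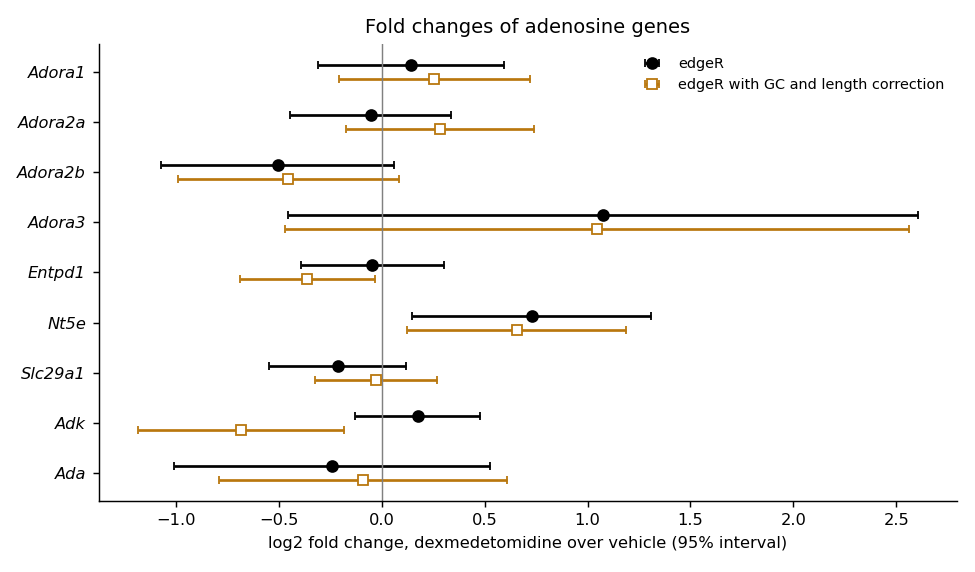
Log2 fold changes of the 9 genes, dexmedetomidine over vehicle, with 95% intervals, from edgeR (black) and from edgeR with each library's GC and length trend removed (open squares). Nt5e stays to the right of 0 in both, and Adk stands at 0.18 without and at -0.68 with the correction.

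Slc29a1 (ENSMUSG00000023942), the equilibrative transporter through which adenosine enters and leaves cells, measured 27.9, 20.6 and 27.9 CPM after dexmedetomidine and 28.6, 31.3 and 28.9 CPM after vehicle. The groups did not overlap, by a margin of less than 1 CPM, and dexmedetomidine replicate 2 accounted for most of the difference in means. The log2 fold change was -0.21 (SE 0.15, 95% interval -0.55 to 0.12, edgeR adjusted p = 0.437), -0.083 without dexmedetomidine replicate 2 and -0.030 with the GC and length correction. An antisense gene model, Gm17080, overlaps its span and had at most 9 counts in any library.

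The enzymes that remove adenosine differed widely in level, and neither passed the adjusted threshold. Adk (ENSMUSG00000039197) measured 145, 185 and 168 CPM after dexmedetomidine and 150, 159 and 131 CPM after vehicle. The ranges overlapped, with a log2 fold change of 0.18 (SE 0.14, 95% interval -0.13 to 0.48, edgeR adjusted p = 0.492), and of -0.68 with the GC and length correction. Scaled to library totals, the values drew together, at 154, 169 and 151 CPM after dexmedetomidine and 156, 157 and 147 CPM after vehicle. As TPM its mean was 182 after dexmedetomidine and 190 after vehicle, a ratio on the other side of 1.

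Ada (ENSMUSG00000017697) measured 2.96, 1.90 and 1.88 CPM after dexmedetomidine, from 152, 74 and 73 counts, and 2.53, 3.69 and 1.78 CPM after vehicle, from 148, 183 and 103 counts. The lowest value was in vehicle replicate 3 and the highest in vehicle replicate 2. This gave a log2 fold change of -0.24 (SE 0.34, 95% interval -1.01 to 0.53, edgeR adjusted p = 0.725), and it was 0.062 without vehicle replicate 2.

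Base composition moved with the fold changes of all genes in these libraries, and the members lay far apart in it. In 5 equal bins of genes by GC content of the longest transcript, the median log2 fold change was 0.47 in the lowest bin (median GC 41.4%) and -0.30 in the highest (median GC 57.9%). Adk, at 37.5% GC, was in the lowest 1.61% of tested genes, and its log2 fold change of 0.18 was below the median of the lowest bin. With each library's trend on GC and length removed, it was -0.68 (SE 0.22, 95% interval -1.19 to -0.18, unadjusted p = 0.0125, edgeR adjusted p = 0.294). Adora2a, at 59.2% GC, was at the other end, with 93.9% of tested genes at or below it. Nt5e at 48.0%, Adora3 at 49.0% and Adora2b at 50.4% were near the middle, and the correction left their values close to those without it, at 0.66, 1.05 and -0.45. With the correction 3 of 9 members had an unadjusted p under 0.05, Nt5e higher and Entpd1 and Adk lower, beside 12.7% of all tested genes, 4.91% higher and 7.75% lower, and no member passed the adjusted threshold. The part of base composition in each value was not tested.

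**Figure D3:**
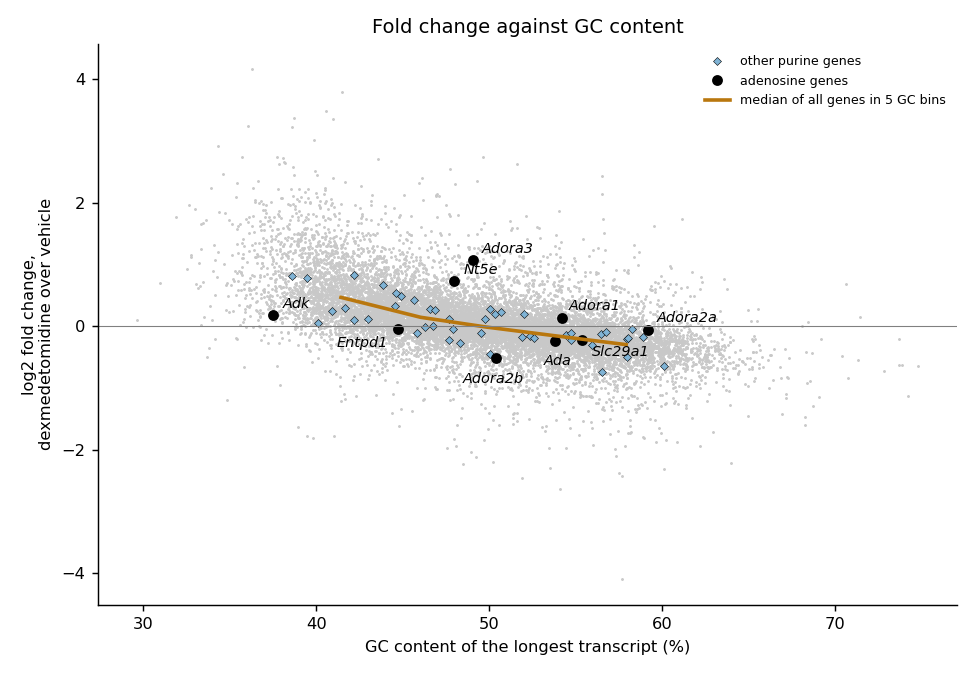
Log2 fold change against GC content of the longest transcript (percent) for tested genes with a known GC content (grey), the other purine genes (blue diamonds) and the 9 adenosine genes (black). The line joins the medians of all genes in 5 GC bins, from 0.47 to -0.30; Nt5e and Adora3 lie above it, Adora2b below it and Adk below the level of its left end.

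Ratios between members within a library do not depend on how libraries are scaled. They still carry any trend on GC content or length, which was not removed from them. For example, Adk was at 37.5% GC and Ada at 53.8%. From counts per base 6 ratios were computed, chosen after the values had been seen and given without a test. The ratio of Nt5e to Entpd1, the enzymes of the last and the preceding step of adenosine production, was 2.03, 1.35 and 1.49 in dexmedetomidine replicates 1, 2 and 3, against 1.29, 0.587 and 0.891 in the vehicle replicates. The dexmedetomidine libraries all lay above the vehicle libraries, by a small margin between dexmedetomidine replicate 2 and vehicle replicate 1. The ratio of Slc29a1 to Nt5e was 0.466, 0.374 and 0.419 after dexmedetomidine and 0.551, 1.33 and 0.844 after vehicle, again without overlap. Both ratios contain Nt5e and are not independent of each other.

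The ratio of Nt5e to Adk was 0.175, 0.126 and 0.169 after dexmedetomidine and 0.146, 0.0626 and 0.111 after vehicle, with vehicle replicate 1 among the dexmedetomidine libraries. Between the Gs-coupled receptors, the ratio of Adora2b to Adora2a was 0.761, 0.505 and 0.753 after dexmedetomidine and 0.969, 1.41 and 0.529 after vehicle, so Adora2b exceeded Adora2a per length in vehicle replicate 2 alone. The ratio of Adora1 to Adora2a averaged 0.485 ± 0.125 with dexmedetomidine and 0.435 ± 0.0896 with vehicle (SD over 3 libraries each), and that of Ada to Adk 0.0118 ± 0.00474 after dexmedetomidine and 0.0152 ± 0.00412 after vehicle. The groups overlapped for each of these 4 ratios.

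**Figure D4:**
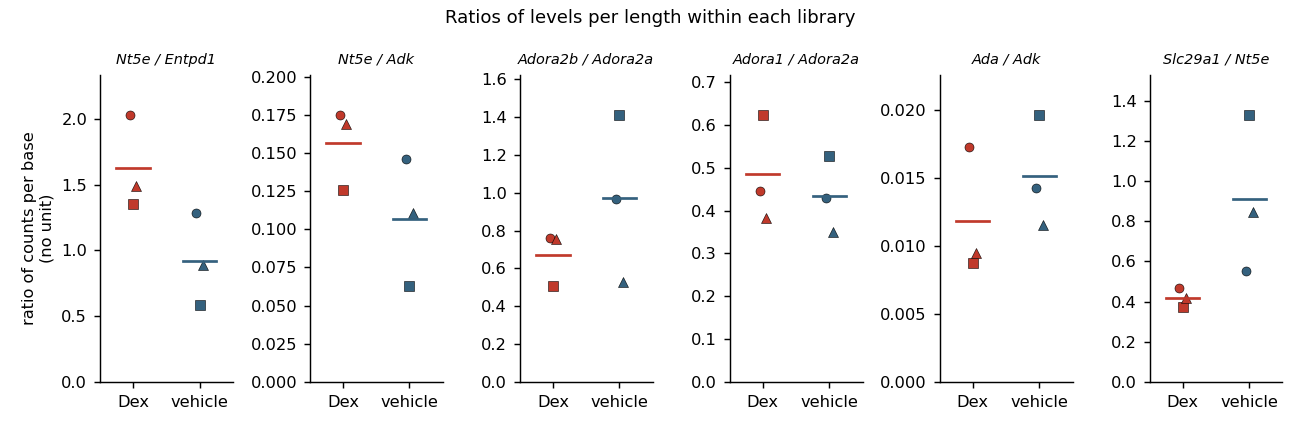
Ratios of counts per base between pairs of adenosine genes within each library, with dexmedetomidine (Dex, red) left of vehicle (blue), circles, squares and triangles for replicates 1, 2 and 3, and bars for means. The groups are separate for Nt5e over Entpd1 and for Slc29a1 over Nt5e and overlap in the other panels.

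Other genes of purine metabolism, nucleoside transport and nucleotide (P2) receptors showed no common direction. Of 54 listed genes 52 were found and 45 passed the filter, 22 with a log2 fold change above 0 and 23 below, with a median of -0.0052 against 0.0032 over all tested genes. In edgeR none passed the adjusted threshold, and 7 of 45 had an unadjusted p under 0.05, 5 higher and 2 lower, beside 21.5% of all tested genes. With the GC and length correction 24 were above 0 and 21 below, beside 6633 and 8105 of all tested genes. Those with an unadjusted p under 0.05 were 0 higher and 4 lower, beside 4.91% and 7.75% of all tested genes. The 4 were P2ry2, Hprt, Cd38 and Enpp1. Cd38, an NAD-consuming ectoenzyme, was at 0.25 without and -0.33 with the correction (unadjusted p = 0.0284), and Enpp1, which cleaves ATP outside cells, at -0.11 and -0.43 (unadjusted p = 0.0419). DESeq2 called 2, Dpp4 higher and P2ry2 lower, beside 9.56% of the genes it tested. Limma-voom called 4, Dpp4 and Enpp2 higher and P2ry2 and Nt5c1a lower, beside 14.3%.

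P2ry2, a Gq-coupled receptor for ATP and UTP, had the smallest p of the list. It measured 55.9, 59.3 and 52.7 CPM after dexmedetomidine and 104, 103 and 72.7 CPM after vehicle, with no overlap. The log2 fold change was -0.74 (SE 0.15, edgeR adjusted p = 0.101, DESeq2 adjusted p = 0.00205) and -0.50 with the GC and length correction (unadjusted p = 0.00988). Without vehicle replicate 3, its lowest vehicle library, P2ry2 was called in edgeR (log2 fold change -0.89, adjusted p = 0.0109). That fit called 8.31% of 15048 tested genes, 2.19% as lower. The cytosolic 5'-nucleotidase gene Nt5c1a, whose enzyme makes adenosine from AMP inside muscle cells, measured 9.84, 7.47 and 8.45 CPM after dexmedetomidine and 11.6, 13.5 and 11.4 CPM after vehicle, a log2 fold change of -0.50 (SE 0.17, edgeR adjusted p = 0.140). With the correction it was -0.13.

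On the higher side were Dpp4, a peptidase whose human protein binds adenosine deaminase, P2ry14, a receptor for UDP-sugars, and Enpp2, a phosphodiesterase of the ENPP family that makes lysophosphatidic acid. Adal, a deaminase-like gene, and Nt5c2, a cytosolic nucleotidase that prefers IMP and GMP, were the others. Dpp4 measured 3.05, 3.46 and 3.98 CPM after dexmedetomidine and 1.86, 1.67 and 2.35 CPM after vehicle, a log2 fold change of 0.83 (SE 0.27, edgeR adjusted p = 0.128, DESeq2 adjusted p = 0.0486). P2ry14 had a log2 fold change of 0.78, Adal of 0.54, Enpp2 of 0.49 and Nt5c2 of 0.27, with edgeR adjusted p between 0.142 and 0.218. These 5 genes had GC contents of 39.4% to 46.6%, and with the correction their log2 fold changes were 0.32 for Dpp4, 0.14 for P2ry14, 0.24 for Adal, 0.22 for Enpp2 and 0.12 for Nt5c2, none with an unadjusted p under 0.05. The annotated span of P2ry14 overlaps that of Med12l on the other strand, and that of Adal overlaps that of Lcmt2 on the other strand. Counting is not stated to use strand, so reads on any shared exon bases might not be told apart. Whether exons are shared was not examined.

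**Figure D5:**
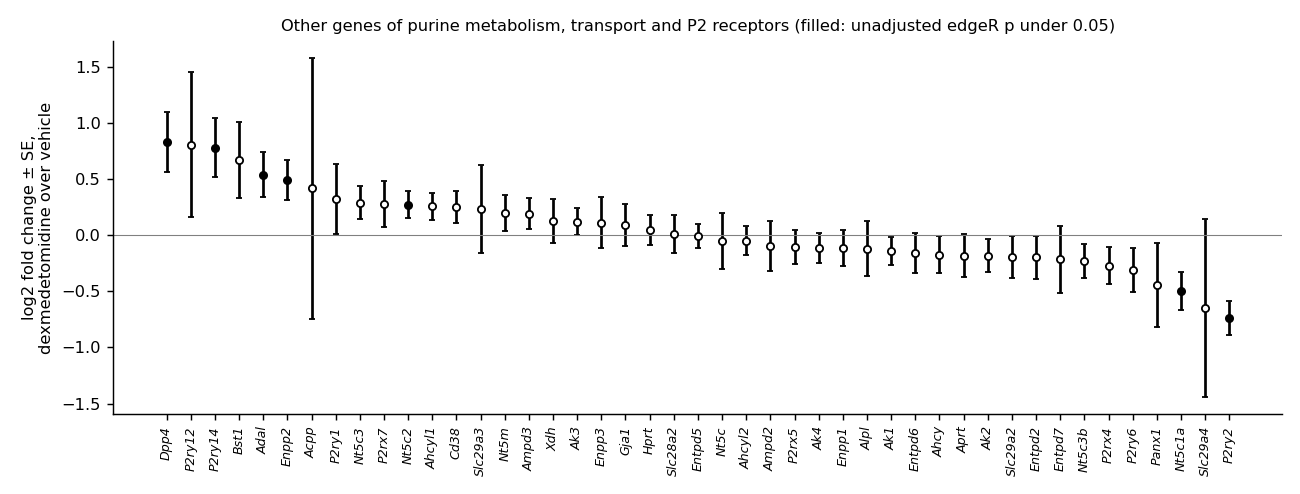
Log2 fold changes with SE, dexmedetomidine over vehicle, for the 45 other purine genes that passed the filter, ordered by size. Filled points have an unadjusted edgeR p under 0.05, 5 on the higher side and P2ry2 and Nt5c1a on the lower side.

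None of several routes parallel to the members passed the adjusted threshold. Entpd5, an ectonucleotidase relative of CD39 found in the endoplasmic reticulum, had a log2 fold change of -0.0052, Slc28a2, a sodium-coupled purine nucleoside transporter, of 0.013, and Slc29a2, the second equilibrative transporter ENT2, of -0.20. Slc29a2 measured 4.92, 5.93 and 5.60 CPM after dexmedetomidine and 6.08, 6.004 and 6.74 CPM after vehicle, so its groups did not overlap, and with the correction it was at 0.11. Tissue-nonspecific alkaline phosphatase, Alpl, which also cleaves AMP outside cells, was at -0.12, and Xdh, the xanthine oxidoreductase of purine breakdown, at 0.12. Hprt, the purine salvage enzyme, was at 0.048 without and at -0.54 with the GC and length correction (unadjusted p = 0.0142), its transcript holding 40.1% GC.

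As a description over the 6 libraries, the genes most like each member were named from 9638 or 9639 genes with a mean of at least 5 CPM by Pearson correlation of log2 CPM. With 6 points that share group and library, high values are common, and no function is read from them. Nt5e was most like Klhdc10 (r = 0.997), Sdad1 (0.994) and Pex3 (0.988). Adora2b was most like Vps39 (0.990), Cmtm7 (0.988) and Dennd3 (0.987), and Adora2a most like Thsd1 (0.993), Phf20 (0.977) and Mbd1 (0.975). Adora1 was most like Chchd5 (0.977), Gab2 (0.971) and Ccdc117 (0.970), and Adora3 most like Ttc21b (0.985), Hikeshi (0.974) and Amy1 (0.970). Entpd1 was most like F13a1 (0.978), Cd24a (0.978) and Ifitm1 (0.973), Slc29a1 most like Klhl18 (0.994), 2300009A05Rik (0.990) and Avpr1a (0.987), Adk most like Apool (0.994), Pdhb (0.993) and Intu (0.990), and Ada most like Spag7 (0.997), Pdia6 (0.992) and Eml1 (0.989). Between members the closest pair was Adora3 and Adk (r = 0.774) and the most opposed Adora2a and Ada (r = -0.914).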

How the data were processed

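The authors deposited raw counts per gene for 6 libraries of poly-T selected RNA (1 µg per sample) and the length of each gene. The submitters' processing notes name Trim Galore, HTSeq and build mm9. Which aligner, versions, annotation and strand setting they used is not given in the sources used here. The 5 summary rows stayed out of library totals. As a share of gene counts and summary rows together, alignments at several places made up 31.2% to 39.5% after dexmedetomidine and 28.0% to 31.4% after vehicle. Of 37620 identifiers, 32897 matched a symbol. GENCODE M21 (GRCm38), another build, served for symbols, overlapping spans and GC content.

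The deposited counts were tested with edgeR 4.0.16 in R 4.3.3 (quasi-likelihood, robust, filterByExpr, TMM), adjusted over all genes by Benjamini-Hochberg at 0.05. Alternatives were DESeq2 1.42.0, limma 3.58.1 (voom), other filters and scalings, a replicate block, leaving out libraries, and removal of each library's spline trend on GC and length (5 degrees of freedom each, 409 genes without GC set to the median). Members and lists were chosen with earlier results of these data known. The text names all 9 members, listed purine genes with an unadjusted p under 0.05, the 3 genes most like each member, and genes overlapping members. Overlapping genes not named above were Mybph for Adora1, Gm16027, Gm8783 and AC166063.1 for Entpd1, and Gm26372 for Adk. Gm8783 and AC166063.1 were absent from the count table, and the others had at most 6 counts in any library. A further 8 genes of the purine list, from parallel routes or with an unadjusted p under 0.05 after the GC correction, and single marker genes were named after their values were seen. Every pair of libraries differed by more than sampling noise (chi-square per degree of freedom 29.0 to 446).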

Additional observations from a re-analysis of the deposited data

How the results depend on the processing

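Over 14 alternatives, none of the 9 members was called in edgeR or limma-voom, and 1, Nt5e, was called in DESeq2 (adjusted p = 0.0474). Of 124 member values, 115 kept direction and side of the threshold. The 8 reversed log2 fold changes were Adk at -0.68 with the GC and length correction, Adora2a at 0.28 with that correction, 0.033 without dexmedetomidine replicate 1 and 0.093 without vehicle replicate 3, Adora1 at -0.0033 with library totals and -0.13 without dexmedetomidine replicate 2, Entpd1 at 0.11 without dexmedetomidine replicate 1, and Ada at 0.062 without vehicle replicate 2. With 1 library left out the values ran from -0.13 to 0.28 for Adora1, -0.17 to 0.093 for Adora2a, 0.68 to 1.80 for Adora3, -0.17 to 0.11 for Entpd1 and -0.50 to 0.062 for Ada. The cause was not tested. The scaling by library totals was chosen after seeing the data; it put the median of all genes at a log2 ratio of -0.13, TPM at -0.23, and TMM at 0.0033.

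Genes past the threshold were 0 in edgeR, 406 without a filter, 1272 in DESeq2, 2107 in limma-voom, and 0 to 1251 with 1 library left out, the highest without vehicle replicate 3. Other purine genes called were 0 in edgeR, 1 without a filter, 2 in DESeq2, 4 in limma-voom, and 0 to 1 with 1 library left out. The members' count was 0 in each leave-one-out fit. With the replicate block 636 genes and 1 other purine gene passed, and Nt5e was at 0.80 (edgeR adjusted p = 0.0526). Same-numbered libraries deviated together with correlations of -0.055, 0.036 and 0.153, so the numbers are not taken to pair the samples.

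Adora3 and Ada had at most 30 and 183 counts in a library, which limits their precision. Counting without stated strand limits genes with overlapping neighbours.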
